A study of Mus musculus with 21 samples.

Results

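Keratins are the intermediate filament proteins of epithelial cells, and their RNAs are used to tell epithelial cell types apart. Described here are the 10 keratin genes Krt7, Krt8, Krt18, Krt19, Krt20, Krt23, Krt80, Krt5, Krt14 and Krt17, chosen by their symbols out of the 34478 genes of the deposited table. They were followed by RNA sequencing through the acquisition of resistance to trametinib, an inhibitor of the kinase MEK, and through drug withdrawal, in 6 murine pancreatic ductal adenocarcinoma (PDAC) cell lines (#3, #4, #6, #7, #9 and #10). The 21 samples comprised 6 parental samples never exposed to the drug, 6 resistant samples kept in trametinib at 100 times the IC50 of the line, 3 samples of resistant cells grown drug-free and named P5 (lines #3, #7 and #9), and 6 named P12 after their 12 drug-free passages. The description label of P5 in lines #7 and #9 gives 12 passages, whereas the title gives P5. All groups, parental cells included, share 1 genotype with the alleles Ptf1awt/Cre and Trp53loxP/loxP, in which Cre expressed from Ptf1a in the pancreatic lineage deletes Trp53. Each line was grown from 1 primary tumor and contributed 1 sample per state, so that the spread between lines includes differences between tumors. Lines #3 and #4 came from male and the other 4 from female mice, and strain and age are not given in the sources used here.

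Keratin filaments are built from obligate pairs of 1 type II and 1 type I protein. In simple epithelia such as the pancreatic duct, the main pair is Krt8 (type II) with Krt18 (type I), joined by the type II keratin Krt7 and the type I keratin Krt19, a widely used ductal marker. Krt20 is known from intestinal and urothelial surface epithelium, and Krt23 and Krt80 are less studied members of type I and type II. Krt5 (type II) pairs with Krt14 (type I) in the basal layer of stratified epithelia, and Krt17 is a type I keratin of skin appendages and of injured or malignant epithelium.

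In GENCODE annotation of GRCm38, the build named in the labels as mm10, the type II genes Krt7, Krt8, Krt80 and Krt5 lie on chromosome 15 together with the type I gene Krt18, which is separated from Krt8, on the opposite strand, by 23697 bases. The other type I genes, Krt19, Krt20, Krt23, Krt14 and Krt17, lie on chromosome 11. Krt8 spans chr15:101996698-102004482 on the minus strand and has 9 exons. Krt18 spans chr15:102028180-102032027 on the plus strand with 7 exons. Krt20 (chr11:99428403-99438150) and Krt23 (chr11:99477974-99493137) are both on the minus strand and have 8 exons each. Genes on the opposite strand overlap Krt7 (Gm671), Krt8 (Gm36026), Krt80 (Gm35853 and Mir1941) and Krt5 (Gm44323). The library kit marks strand, but the strand setting of the quantification is not given in the sources used here, so reads of these partners could not be told apart with certainty.

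Promoter sequence is shown for the 4 keratins with lower RNA in resistant cells when lines were compared with themselves, as described below. Shown 5′ to 3′ on the strand of each gene is the part of the RefSeq promoter window (GRCm38.p6) that precedes the first exon base in GENCODE, at chr15:102004483-102004592 (minus), chr15:102027966-102028179 (plus), chr11:99438154-99438403 (minus) and chr11:99493138-99493370 (minus). Capitals mark a TATA box in Krt20 and a CACCTG E-box, the letters bound by ZEB and SNAI factors, in Krt18 and Krt23.
Krt8: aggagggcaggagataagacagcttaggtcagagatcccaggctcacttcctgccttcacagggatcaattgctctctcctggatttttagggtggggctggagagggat
Krt18: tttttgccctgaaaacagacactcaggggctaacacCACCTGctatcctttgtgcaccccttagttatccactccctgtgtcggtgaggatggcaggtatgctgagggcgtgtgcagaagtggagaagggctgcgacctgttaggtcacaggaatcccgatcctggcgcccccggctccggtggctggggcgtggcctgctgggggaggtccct
Krt20: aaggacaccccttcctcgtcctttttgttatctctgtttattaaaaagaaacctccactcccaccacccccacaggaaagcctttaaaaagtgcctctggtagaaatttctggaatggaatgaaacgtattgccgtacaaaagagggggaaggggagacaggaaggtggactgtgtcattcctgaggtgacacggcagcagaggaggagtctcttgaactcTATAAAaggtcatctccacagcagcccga
Krt23: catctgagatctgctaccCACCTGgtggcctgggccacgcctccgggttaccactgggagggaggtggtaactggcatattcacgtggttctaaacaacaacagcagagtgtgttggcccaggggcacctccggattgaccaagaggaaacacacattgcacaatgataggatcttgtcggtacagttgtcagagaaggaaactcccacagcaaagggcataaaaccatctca

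Of the 10 keratins, 7 had an entry in the RefSeq promoter table (Krt17, Krt19 and Krt80 did not). The 250 bases before their RefSeq starts were searched on both strands, and no match overlapped a match of another motif. CACCTG was present in 5 (Krt7, Krt8, Krt18, Krt23 and Krt5) and in 17.2% of all 32851 promoters. The E-box of Krt8 lies in its first GENCODE exon and is not in the sequence printed above. TATAAA was present in 1, Krt20, at 29 to 24 bases before the start (12.4% of all promoters). GGGCGG occurred in 1, Krt7, with 4 matches (32.7% of all), and CCGGAA in 1, Krt14 (12% of all). The AP1 letters TGANTCA were found in 0 of the 7, against 6.75% of all promoters.

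The depth of the samples, estimated from the spacing of low values, lay between 24.1 and 42.7 M reads, at which 3 reads correspond to 2.31 to 4.07 normalized counts. Of 8 markers of ductal carcinoma epithelium, Krt19 among them, 7 reached 10 normalized counts in parental samples and 5 in resistant samples. Their sum was 6402 to 127691 in parental and 827 to 116917 in resistant samples, and Epcam was listed at 0 in 20 of 21 samples. A listed 0 can be a failed estimate, and whether it is one for Epcam was not tested. Cdh1, the epithelial cadherin, was between 816 and 53229 in parental samples, with line #9 lowest, and between 4.01 and 16401 in resistant samples. The 7 fibroblast or stellate genes summed to 41.5 to 3233 normalized counts in parental and 1451 to 66270 in resistant samples, in which Dcn alone was at 268 to 65968, and to 101 to 26087 in P12. The leukocyte genes summed to 141 to 277 in parental and 207 to 2901 in resistant samples, and the endothelial genes to 37.1 to 166 and 15.8 to 2753. Among the leukocyte genes in resistant samples, Csf1r reached 2530, Cd68 348 and Ptprc 12.8. Among the endothelial genes, Tek reached 2512, Kdr 865 and Pecam1 28.1. Acinar genes reached at most 957, endocrine genes at most 62.6 and the stratified squamous genes at most 1487 in any sample. The part of these genes in the keratin differences was not tested. Since the samples are bulk RNA, fewer cells expressing a keratin and less keratin RNA per cell cannot be told apart.

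In parental cells the simple epithelial keratins Krt8, Krt18 and Krt19 had the highest medians of the 10 keratins. The 10 keratins together took 0.581% to 0.810% of all normalized counts in lines #3, #4, #6, #7 and #10, but 0.0489% in line #9. Per kilobase of transcript, the medians of parental samples were 40681 for Krt8, 39604 for Krt18 and 36464 for Krt19, and their ranges over lines overlapped. Krt7 (9159 per kb), Krt20 (1686), Krt23 (1207) and Krt80 (549) followed, each overlapping its neighbor in this order, and Krt14 (22.2 per kb) lay below Krt80 in its whole range. In resistant cells the order of medians per kb was Krt19 (29228), Krt18 (9289), Krt8 (7285), Krt80 (1232), Krt14 (567) and Krt7 (461), with Krt20 (6.71) and Krt23 (3.65) last among those above 0. Neighbors in that order overlapped as well. In P12 cells Krt18 (16522), Krt19 (12176) and Krt8 (7344) again came first.

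**Figure D1:**
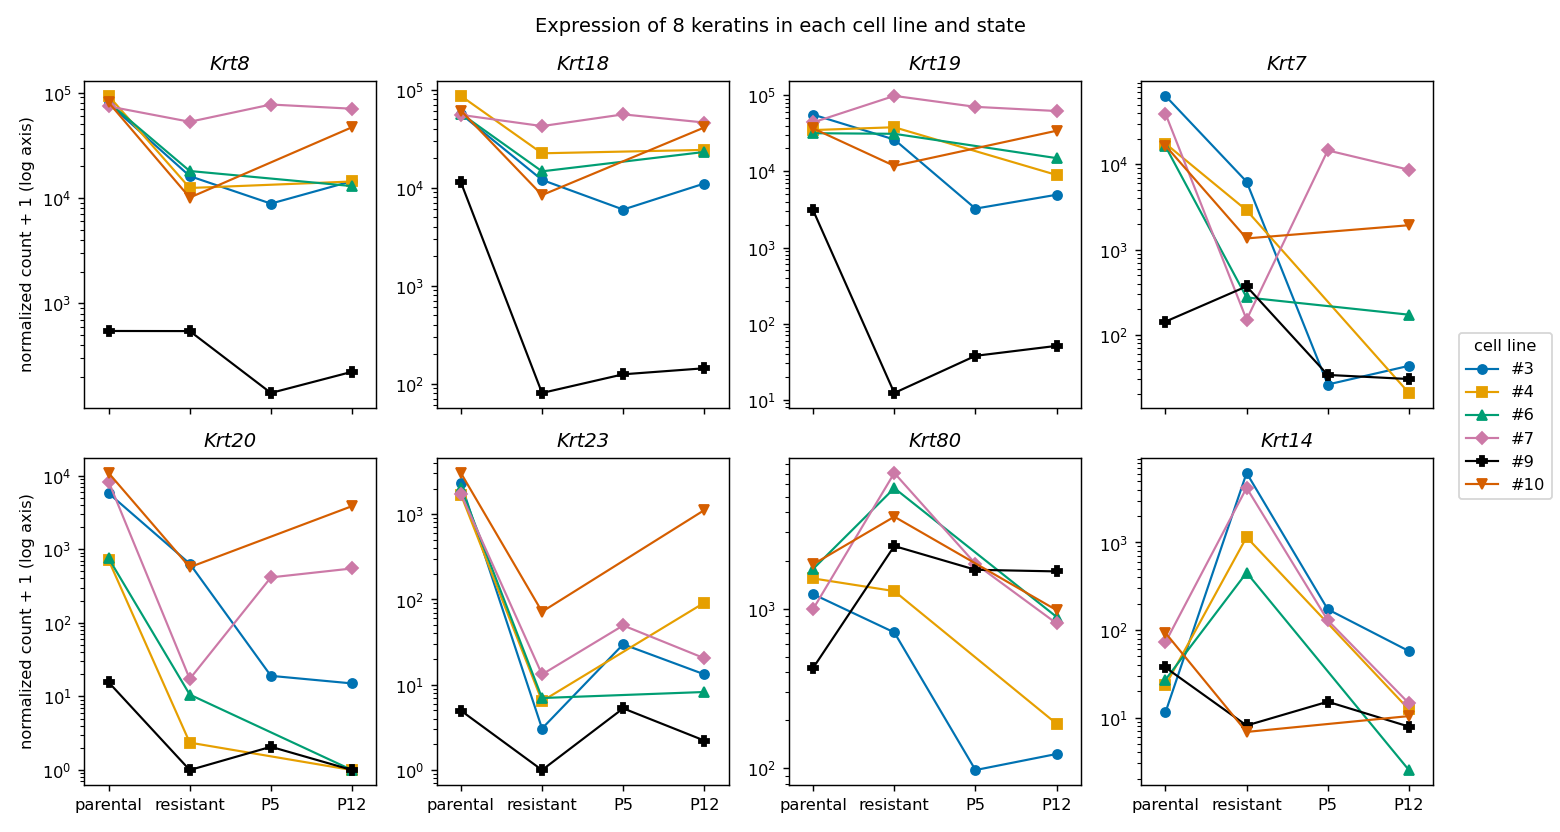
Normalized count plus 1 (log axis, own range in each panel) of 8 keratins in the 4 states, with each point 1 sample and lines joining samples of the same cell line; P5 exists for lines #3, #7 and #9 only. Line #9 (black) lies below all other lines for Krt8, Krt18 and Krt19 in every state, and Krt23 is lower in resistant than parental cells of all 6 lines.

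The pair Krt8 and Krt18 was lower in resistant than in parental cells of every line. In line #9, however, Krt8 barely differed (log2 difference -0.0035). At P12 both were below the parental value in all 6, in line #7 with log2 differences of only -0.075 (Krt8) and -0.26 (Krt18). Krt8 in parental lines #3, #4, #6, #7, #9 and #10 was at 78809, 92917, 80717, 73967, 545.8 and 80497 normalized counts. The resistant values in the same order were 16107, 12422, 18004, 52773, 544.5 and 10075. The P12 values were 14439, 14320, 12951, 70202, 223.2 and 46861. Parental lines other than #9 thus lay close together, and after resistance line #7 was the highest while line #9 was near its own parental value. At P5, lines #3, #7 and #9 held 8832, 76935 and 140.2 of Krt8.

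Krt18 was at 56640, 86547, 57182, 55391, 11364 and 61298 in the parental lines in the same order. Its resistant values were 12009, 22449, 14688, 42553, 79.2 and 8405. At P12 it was at 11033, 24318, 23167, 46260, 142.4 and 41201. Line #10 came back from the second lowest value in resistance to 1 of the 2 highest at P12, and line #9 stayed lowest throughout. At P5, Krt18 was at 5980, 56041 and 123.4 in lines #3, #7 and #9.

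Differences between states were tested in log2(normalized count + 1) with limma across the 19300 genes that passed the filter on low values, called at an adjusted p below 0.01 and a log2 change above 1 or below -1. The change of Krt8 from parental to resistant was -1.81 on this scale (SE 1.62, limma adjusted p = 0.503), and that of Krt18 was -2.76 (SE 1.59, limma adjusted p = 0.264). Neither passed when the lines were treated as unrelated. With the cell line as a block, which compares each line with itself, both fell, at limma adjusted p = 0.00818 for Krt8 and 0.00839 for Krt18. Without line #9 the blocked changes were -2.17 for Krt8 (limma adjusted p = 0.00526) and -1.88 for Krt18 (limma adjusted p = 0.00628). From resistant to P12 they changed by 0.15 (SE 1.62) and 0.65 (SE 1.59), with limma adjusted p = 0.976 and 0.876, so that a return was not detectable over the 6 lines. Leaving out lines in turn gave 0.32 to 0.80 for Krt18. From parental to P12 Krt8 changed by -1.65 (SE 1.62, limma adjusted p = 0.652, and 0.0438 with the block). Krt18 changed by -2.11 (SE 1.59, limma adjusted p = 0.547, and 0.0787 with the block). Neither was called.

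Krt19, the other abundant type I keratin, did not follow this pair in each line. Its parental values were 55658, 34895, 31733, 44028, 3074 and 36696 normalized counts in lines #3, #4, #6, #7, #9 and #10. In resistant cells they were 26207, 38007, 31178, 98106, 11.3 and 11815, higher than parental in lines #4 and #7 and lower in the other 4. At P12 Krt19 was at 4935, 8971, 14935, 62058, 50.1 and 34208, and at P5 it was at 3244, 70425 and 36.8 in lines #3, #7 and #9. Parental and resistant values overlapped broadly. The change from parental to resistant was -1.57 (SE 2.07, limma adjusted p = 0.668, and 0.219 with the block). Without line #9, in which Krt19 was lowest in every state, it was -0.29.

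Krt7 is the further type II keratin of ductal epithelium. Parental values were 63730, 17577, 16323, 39499, 142.1 and 16641 normalized counts. Resistant values were 6278, 2897, 274.1, 149.9, 370.0 and 1354, lower than parental in 5 lines and higher in line #9. P12 values were 42.3, 19.8, 171.5, 8665, 29.3 and 1934, below the parental value in all 6 lines. Lines #3 and #4 went down further after withdrawal, while line #7 went from 149.9 in resistance to 14610 at P5. P5 values of lines #3 and #9 were 25.2 and 32.9. From parental to resistant the change was -3.69 (SE 1.80, limma adjusted p = 0.180), and from parental to P12 it was -5.72 (SE 1.80, limma adjusted p = 0.134). With the block these adjusted p values were 0.0982 and 0.0477, and Krt7 was not called in either.

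Ratios within a sample do not depend on a scaling factor shared by all its genes. A scaling that differs between genes would remain in them, and its part was not tested. The ratios are of counts not divided by transcript length, which is 1958 bases for Krt8 and 1437 for Krt18. A ratio of 1 thus does not mean equal numbers of transcripts. Krt8 to Krt18 was 1.07 to 1.41 in 5 parental lines and 0.0480 in line #9, where Krt18 was 20.8 times Krt8. In resistant cells the ratio was 1.2 to 1.34 in lines #3, #6, #7 and #10, 0.553 in line #4 and 6.87 in line #9. In counts, Krt18 thus exceeded Krt8 in resistant line #4, and again at P12 in lines #4 (0.589) and #6 (0.559). The other P12 ratios were between 1.14 and 1.57.

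Krt19 to Krt18 was 0.983, 0.403, 0.555, 0.795, 0.271 and 0.599 in parental lines #3, #4, #6, #7, #9 and #10. In resistant cells it was 2.18, 1.69, 2.12, 2.31, 0.143 and 1.41. The resistant ratio was thus above every parental ratio in 5 lines, and below all of them in line #9. At P12 it was 0.447, 0.369, 0.645, 1.34, 0.352 and 0.830, lower than in resistance in 5 of the 6 lines. Summed type II over type I counts were 0.885 to 1.19 in 5 parental lines, 0.269 to 0.728 in the same 5 lines in resistance, and 34.6 in resistant line #9, where most of the keratin counts came from the type II gene Krt80. These ratios were described and not tested.

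**Figure D2:**
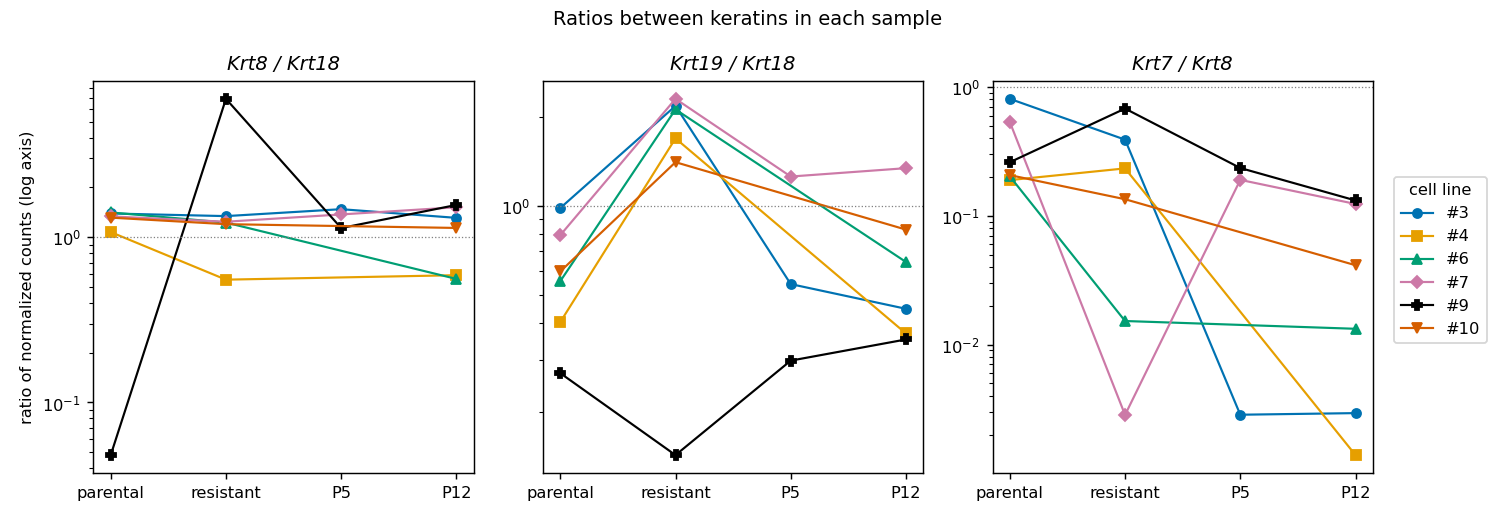
Ratio of the normalized counts of Krt8 to Krt18, Krt19 to Krt18 and Krt7 to Krt8 (log axes, dotted line at 1) in each sample by state, with lines joining samples of 1 cell line. Krt19 to Krt18 is above 1 in resistant cells of all lines but #9, where it is 0.143. Counts are not divided by transcript length.

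Among the less abundant simple keratins, Krt23 showed the only difference called without the block. Parental values were 2311, 1699, 2046, 1733, 3.98 and 3042 normalized counts in lines #3, #4, #6, #7, #9 and #10. Resistant values were 2.1, 5.4, 6.0, 12.2, 0 and 70.9. Each of the 6 lines was lower in resistance, and the groups overlapped only because parental line #9 was already near the detection floor. The log2 change was -6.76 (SE 1.56, limma adjusted p = 0.00676). With the block, limma adjusted p was 9.75e-05. Without the block, leaving out line #3, #4, #6 or #7 raised it to 0.0515, 0.0354, 0.0387 or 0.0248, which ended the call.

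After withdrawal Krt23 was above the resistant value in every line. It reached 12.2, 90.7, 7.2, 19.5, 1.2 and 1116 at P12, and 28.8, 48.6 and 4.3 at P5 in lines #3, #7 and #9. The rise to P12 was small in line #6 (log2 difference 0.235). In line #9 Krt23 went from 0 to 1.2, both under the value of 3 reads. Of the 5 lines with high parental Krt23, line #10 came nearest to its parental value, with a log2 difference of -1.45, and lines #3, #4, #6 and #7 had differences between -7.96 and -4.21. The change from resistant to P12 was 1.99 (SE 1.56, limma adjusted p = 0.537), higher in 6 of 6 lines but not called. From parental to P12 it was -4.77 (SE 1.56, limma adjusted p = 0.149, and 0.0102 with the block). With the block and without line #9 it was -5.49 (limma adjusted p = 0.00338), which passed.

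Krt20 was at 5747, 709.3, 751.6, 8280, 14.6 and 10830 normalized counts in the parental lines. In resistant cells it was at 634.0, 1.4, 9.6, 16.3, 0 and 567.7, lower in every line. At P12 it was at 14.0, 0, 0, 545.8, 0 and 3842. Resistant lines #4 and #9 and P12 lines #4, #6 and #9 were at or under the value of 3 reads. The P5 values of lines #3, #7 and #9 were 18.0, 412.7 and 1.1. Its change from parental to resistant was -5.78 (SE 2.29, limma adjusted p = 0.0941), and with the block it fell, at limma adjusted p = 0.00294. From parental to P12 it was -6.16 (limma adjusted p = 0.205, and 0.0134 with the block), lower in 6 of 6 lines.

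Krt80 and Krt14 had the opposite profile, with their highest group medians in resistant cells. Krt80 was at 1230, 1544, 1771, 993.7, 424.5 and 1893 normalized counts in parental lines #3, #4, #6, #7, #9 and #10. In resistance it was at 708.1, 1285, 5677, 7063, 2463 and 3760, and at P12 at 122.0, 189.0, 885.7, 806.2, 1708 and 976.5. Lines #3 and #4 were a little lower in resistance and the other 4 higher, and every line was lower at P12 than in resistance. Line #9 had the lowest Krt80 of the parental lines and the highest at P12. At P5 it was at 96.5, 1906 and 1749 in lines #3, #7 and #9.

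The change of Krt80 from parental to resistant was 1.16 (SE 0.77, limma adjusted p = 0.342). From resistant to P12 it was -2.26 (SE 0.77, limma adjusted p = 0.0915, and 0.0191 with the block). With the block and without line #9 it was -2.61 (limma adjusted p = 0.00741), which passed. From parental to P12 it was -1.10 (SE 0.77, limma adjusted p = 0.511), with -1.72 without line #9, -0.71 without line #4 and -0.65 without line #3.

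Krt14, the basal type I keratin, split the lines. In parental cells it was at 10.5, 22.3, 26.1, 71.5, 36.4 and 91.8 normalized counts. Resistant lines #3, #4, #6 and #7 were at 6213, 1148, 451.4 and 4203, whereas resistant lines #9 and #10 were at 7.1 and 5.9. At P12 the 6 lines were at 56.5, 11.4, 1.5, 13.6, 6.9 and 9.4. All 4 lines with high Krt14 in resistance had thus come down by P12, and lines #3 and #7 were in between at P5, at 171.5 and 128.2, with line #9 at 14.2. The change from parental to resistant was 3.11 (SE 1.43, limma adjusted p = 0.153), with 1.92 without line #3 and 4.48 without line #10. Its change from resistant to P12 was -4.73 (SE 1.43, limma adjusted p = 0.0557, and 0.0277 with the block). Neither was called.

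Krt5, the partner of Krt14 in basal cells, was not raised with it. It was listed at 0 in all 6 resistant samples and reached at most 3.97 normalized counts in any sample. Krt17 reached at most 10.8, in resistant line #6, and was at 0 in all P12 samples. Both were under the filter and were not tested in the main fit. Krt14, Krt16 and Krt17 have similar sequences, so the split of reads between them is uncertain, and Krt16 reached at most 36.7 and Krt6a at most 53.2. The pseudogene Krt8-ps, a copy of Krt8, reached at most 6.17.

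**Figure D3:**
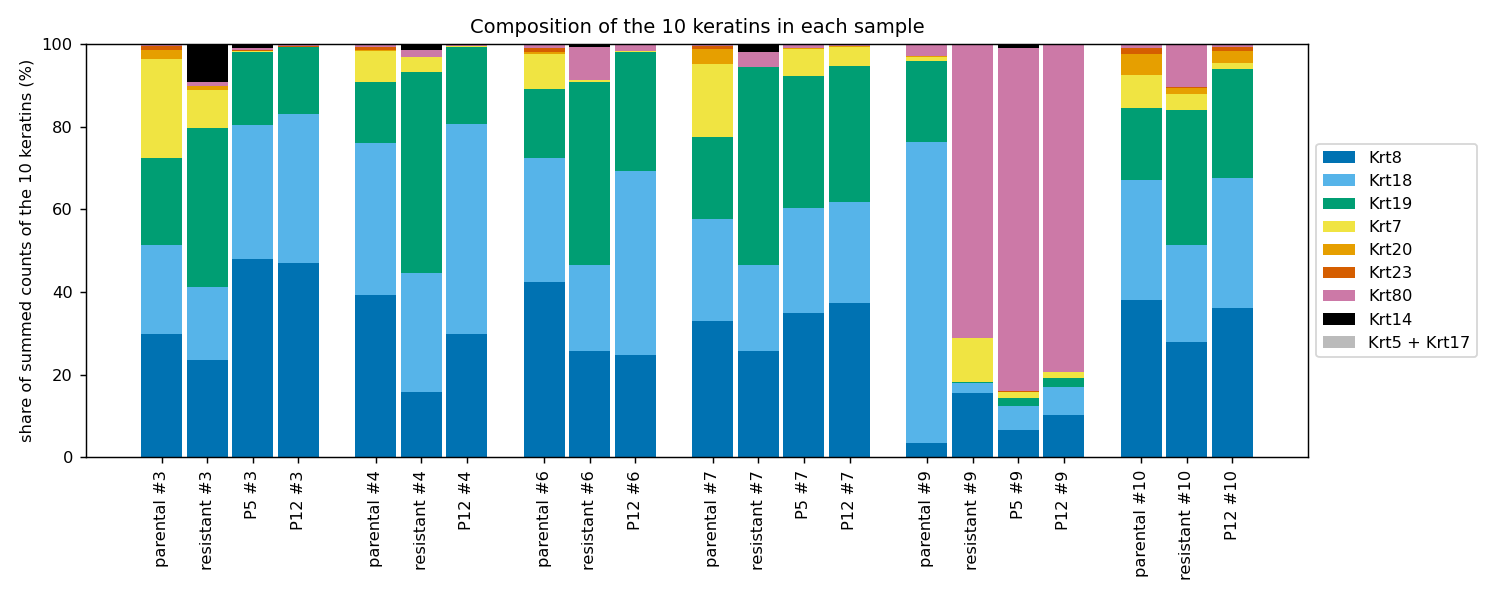
Share (%) of each keratin in the summed normalized counts of the 10 keratins, with 1 bar per sample, grouped by cell line and ordered by state. Krt8, Krt18, Krt19 and Krt7 make up 87.8% to 99.4% of the counts in all samples of lines other than #9, and Krt80 makes up most of them in resistant, P5 and P12 cells of line #9.

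Counted over the list, 8 of the 10 keratins were tested. From parental to resistant 1 was called lower and 0 higher, where 2.73% of all tested genes were called lower and 2.57% higher. With the cell line as a block 4 were called lower (Krt8, Krt18, Krt20 and Krt23) and 0 higher, where the block called 5.6% of all genes lower and 4.85% higher. The same 4 were lower in each of the 6 lines, as were 9.49% of all genes. The median log2 change of the 8 was -2.28, against -0.0049 over all tested genes. With the block and without line #9 the same 4 were called lower, as were 5.6% of all genes. In 0 of the 8 were parental and resistant samples without overlap, where 3.16% of all genes lay wholly lower and 2.83% wholly higher in resistant cells.

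From resistant to P12 0 keratins were called without the block and 0 with it, where 2.13% and 4.52% of all genes were called, and the median change was -0.41 against 0.02 over all genes. At an unadjusted limma p below 0.05, 2 passed (Krt80 and Krt14), as did 19.8% of all genes. With the block and without line #9, 1 was called lower (Krt80, 1.91% of all genes). Krt80 was lower and Krt23 higher in every line, as were 8.2% and 7.77% of all genes. In line #9 Krt23 was under the value of 3 reads in both states. From parental to P12 0 were called in either fit (0.114% and 0.523% of all genes), and 3 (Krt7, Krt20 and Krt23) had an unadjusted limma p below 0.05, as did 15.3% of all genes. With the block and without line #9, 1 was called lower (Krt23, 0.606% of all genes). Lower at P12 than in parental cells of every line were 5 keratins (Krt7, Krt8, Krt18, Krt20 and Krt23), as were 6.96% of all genes. This comparison and that of resistant with parental cells share the parental samples. In the comparisons of P5, with 3 lines, 0 keratins were called against resistant cells (0.378% of all genes, and 0.611% with the block) and 0 against parental cells (0.0259% in either fit). Against resistant cells 0 keratins had an unadjusted limma p below 0.05 (15.4% of all genes), and against parental cells 2 did (Krt7 and Krt23, 10.4% of all genes).

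**Figure D4:**
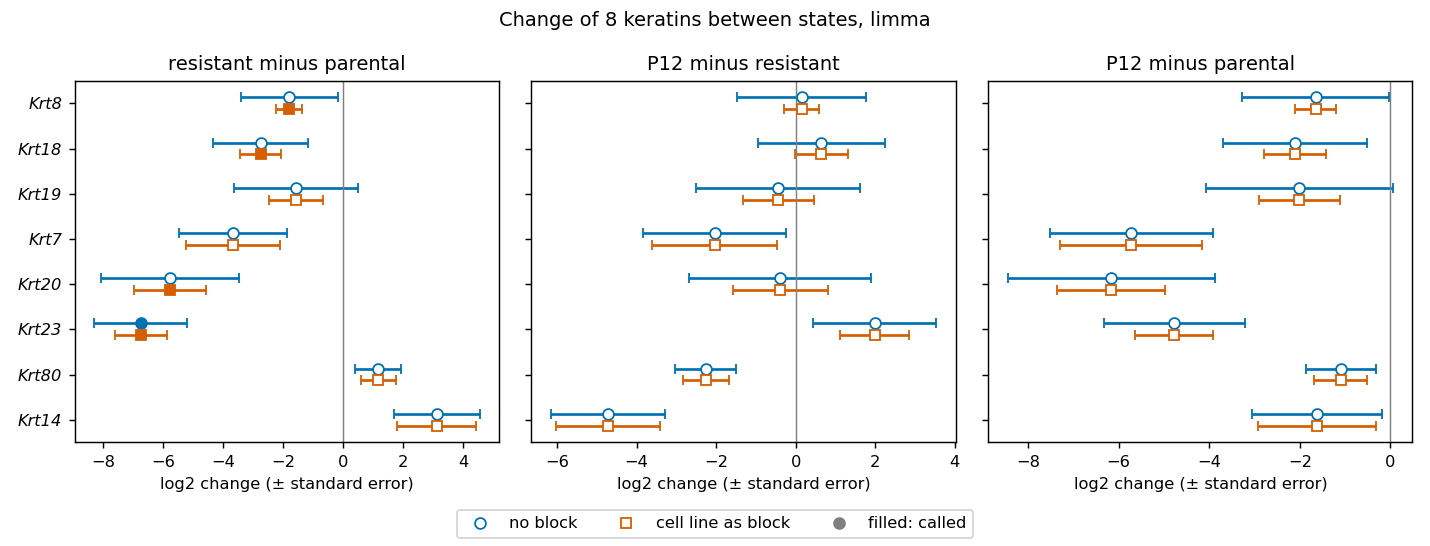
Limma log2 change of 8 keratins in 3 comparisons of states, with standard error bars; circles without and squares with the cell line as a block, filled where called at adjusted p below 0.01 and a log2 change past 1. Krt23 is the only filled circle (resistant minus parental), and Krt8, Krt18, Krt20 and Krt23 are filled squares there.

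The keratins of the main pair varied together. Over the 21 samples, Pearson's r of log2 values was 0.91 for Krt8 with Krt18, 0.91 for Krt8 with Krt19 and 0.97 for Krt18 with Krt19, and without the 4 samples of line #9 it was 0.93, 0.75 and 0.76. Krt7 with Krt20 had r = 0.83 (0.80 without line #9) and Krt20 with Krt23 had r = 0.79 (0.72). Krt80 and Krt14 had r between -0.19 and 0.38 with every other keratin tested, although Krt80 with Krt19 had r = 0.74 without line #9. Samples of 1 line share their tumor of origin, so these values are descriptions. Among 12063 genes with a mean of at least 100, the pattern most like that of Krt8 was that of Abcc3 (r = 0.97), followed by Rnf39, Ston2, Lsr and Mpzl3. Closest to Krt18 were Samd10 (0.96), Gsdmd, Slc18b1, Ccdc125 and Vopp1, and closest to Krt19 were Mfsd6 (0.96), Gsdmd, Vopp1, Ssh3 and Pmaip1. Krt7 was most like Cdc42se2 (0.92), Crb3, Elovl7, Ifngr1 and Myo6. These rankings include the samples of line #9 and were not repeated without them, so shared low values in that line may carry them.

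The remaining keratin genes of the table were mostly silent. Of 38 others, 10 passed the filter, and their median change from parental to resistant was -2.35, against -0.0049 over all tested genes, with 1 lower (Krt36, -3.73, limma adjusted p = 0.00146) and 0 higher, where 2.73% of all genes were called lower. Krt36, a hair keratin, was at 5.38 to 71.4 normalized counts in parental and 0 to 3.77 in resistant samples. With the block, which called 5.6% of all genes lower, Krt36 was called lower as well. Krt12 and Krt4 were also called lower with the block, but they passed the filter on low values only through the parental samples, which favors such a call. From resistant to P12, 2 rose and 0 fell with the block, where it called 4.52% of all genes in either direction. They were the mucosal keratins Krt13 (3.44, limma adjusted p = 0.00616) and Krt76 (4.42, limma adjusted p = 0.00963). Krt13 was at 1.32 to 72 in resistant and 31.8 to 553 in P12 samples.

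Keratin filaments end at desmosomes and hemidesmosomes through linker proteins. Of a list of 22 anchors, linkers and other genes tied to keratins or junctions, 20 were tested. From parental to resistant 1 rose and 2 fell (median -0.41), where 2.57% of all genes were called higher and 2.73% lower. The linkers Dsp, Plec, Ppl and Evpl changed by -0.12, -0.32, 0.24 and 1.19, and none was called. Itga6, the integrin chain of hemidesmosomes, had a lowest, median and highest value of 17854, 20246 and 25273 in parental cells, 77.6, 1912 and 3802 in resistant cells, and 5900, 18733 and 33559 at P12. Parental and resistant samples did not overlap, and Itga6 fell by 4.31 on the log2 scale (limma adjusted p = 0.00103) and rose by 3.84 from resistant to P12 (limma adjusted p = 0.00461). Pkp3, a desmosomal plaque protein, fell by 5.26 (limma adjusted p = 0.00407), and Macf1, a linker of actin and microtubules, rose by 1.11 (limma adjusted p = 0.00192). Itgb4, the partner of Itga6, changed by -4.01 and passed with the block (limma adjusted p = 0.0124 without and 0.0043 with it).

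Of 16 other intermediate filament genes, 14 were tested, with 1 higher (Sync, 4.38) and 1 lower (Bfsp1, -3.64) from parental to resistant and a median of -0.45, beside the same 2.57% and 2.73% of all genes. With the block Bfsp1 and Ina were lower (5.6% of all genes), as was Nefh, which passed the filter on low values only through the parental samples. Sync encodes a filament protein known from muscle and Bfsp1 one known from the lens. Vim, the mesenchymal filament protein, changed by -0.61 (limma adjusted p = 0.304).

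Of 21 transcription factors of epithelial identity or known at keratin genes, 18 were tested, with 3 lower and 0 higher in resistant than parental cells (median 0.19), where 2.73% of all genes were called lower and 2.57% higher. Cdx2, an intestinal homeobox factor, was at 2086, 1098, 1651, 669.6, 703.1 and 815.8 normalized counts in parental lines #3, #4, #6, #7, #9 and #10. In resistant cells lines #3 and #7 held 1.0 and 40.7, and the other 4 held 0. At P12 it was at 278.8, 134.4, 65.9, 380.8, 27.9 and 325.5. Groups of parental, resistant and P12 samples did not overlap except between resistant line #7 (40.7) and P12 line #9. Cdx2 fell by 8.99 (limma adjusted p = 3.12e-06) and rose by 6.11 from resistant to P12 (limma adjusted p = 0.00031). Line #9 was not set apart in parental Cdx2, unlike in Krt8.

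Sox9, a factor of ductal progenitors, fell by 3.06 (limma adjusted p = 0.0029) and rose by 3.84 from resistant to P12 (limma adjusted p = 0.00117). Klf5, a Krüppel-like factor of epithelial cells, fell by 3.77 (limma adjusted p = 0.00477), and its change to P12 was 1.93 (limma adjusted p = 0.192). Elf3, an epithelial ETS factor, changed by -3.81 and passed with the block only (limma adjusted p = 0.0222 without and 0.000464 with it). From resistant to P12, 2 of these factors rose, Cdx2 and Sox9, and 0 of the listed keratins were called in that comparison, where 2.13% of all genes were called.

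**Figure D5:**
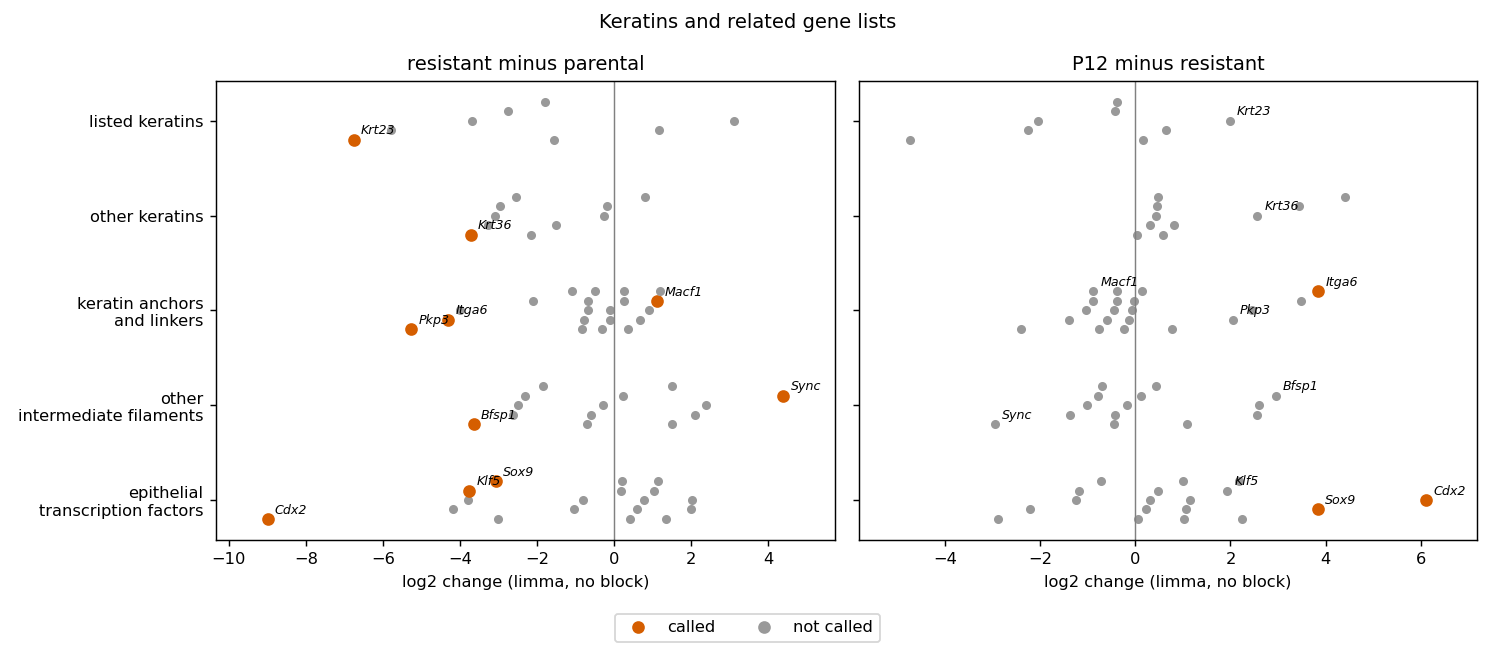
Limma log2 change (without the block) of each tested gene in 5 lists, from parental to resistant (left) and from resistant to P12 (right), with called genes in orange and vertical offsets only for legibility. Cdx2 is lowest on the left at -8.99 and highest on the right at 6.11.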

How the data were processed

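RNA of 6 murine PDAC lines was sequenced in 4 states (21 samples). The deposited values are a signal, namely gene-level counts that the authors normalized with DESeq2. Per the labels, the authors used bcl2fastq 2.19, Salmon 0.12 and DESeq2 1.18, with the mm10 build. For demultiplexing they also name CASAVA 2.17 as the alternative to bcl2fastq. Whole reads could not be recovered, so no count model was run, and depth is a rough estimate.

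Values were analysed as log2(value + 1), and genes at 10 or more in at least 3 samples were kept (19300 of 34478). State was tested with limma 3.58.1 (R 4.3.3, trend) in 1 fit of 4 states with Benjamini-Hochberg adjustment, called at an adjusted p below 0.01 and a log2 change past 1. P values without the block measure the spread between lines, with 1 sample per line and state. Those with the block measure the spread of state differences within lines, pooled over the 4 states. States are paired because they share a cell line, and deviations of the same line from the state means correlated at 0.159 to 0.352 between parental and resistant cells and 0.00819 to 0.510 between parental and P12, so a fit with the line as a block is given where it changes a call. Samples were also simulated (18580 genes, 200 changed by 4 on the log2 scale in resistant cells). From parental to resistant, the fit without the block recovered 151 of the changed genes and called 1 other. Simulated samples of a line were independent of each other, and smaller changes and the block were not tried. A further part of the shared genotype is not reported here. Libraries were sequenced on HiSeq or NovaSeq models. These sequencer models were not assigned to samples, so no comparison within batches was made. Their part in the differences between states or lines was not tested.

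All 10 keratins are named, and of each other list the genes called from parental to resistant, with examples. Genes called only with the block or only at P12 were named after their values were seen. The keratins and lists were chosen with earlier results of these data known. Levels per kilobase use mean transcript length in GENCODE. The alternatives were other pseudocounts, filters and scalings, no trend, the compared states alone, the longest transcript, the block, and each line left out. Python 3.11.15, numpy 2.4.6, pandas 2.3.3 and matplotlib 3.10.9 were used.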

Additional observations from a re-analysis of the deposited data

Results flagged for a closer look

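Line #9 was far below the other lines of its state for several keratins. In parental cells this held for Krt7 (142.1 normalized counts, next lowest line 16323), Krt8 (545.8, next 73967), Krt18 (11364, next 55391), Krt19 (3074, next 31733) and Krt23 (3.98, next 1699). In resistant cells it held for Krt8 (544.5, next 10075), Krt18 (79.2, next 8405) and Krt19 (11.3, next 11815). At P12 it held for Krt8 (223.2, next 12951), Krt18 (142.4, next 11033) and Krt19 (50.1, next 4935). Krt5 at P12 was at 2.49 in line #10 and at 0 in the other 5 lines, near the value of 3 reads. In all, 12 of 28 groups of samples held such a value, where chance gives about 1 in 20, and 11 of the 12 are from line #9, whose samples are not independent of each other.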

How the results depend on the processing

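The count of keratins called from parental to resistant was 1 without the block, 4 with the cell line as a replicate block, and 4 with the block and without line #9, an alternative chosen after seeing the data. It was 0 with the compared states alone and 0 to 1 when each line was left out in turn (0 without line #3, #4, #6 or #7). With the block and without line #9 the count was 1 from resistant to P12 (Krt80) and 1 from parental to P12 (Krt23). The block alone changed no other call of the 8 keratins. Krt23 with the compared states alone had a limma adjusted p of 0.0116. Changes near 0 turned direction without being called. From resistant to P12, Krt20 was 0.17 with a pseudocount of 8, and leaving out lines gave -1.46 to 0.62 for Krt20 and -0.26 to 0.44 for Krt8. From resistant to P5, Krt20 was -0.043 with a pseudocount of 8 and -0.29 with the block and without line #9, and the latter setting gave 0.20 for Krt8 and 0.090 for Krt18. Leaving out lines there gave -1.97 to 1.29 for Krt20, -2.70 to 0.53 for Krt8, -2.49 to 0.11 for Krt18 and -5.34 to 0.30 for Krt7, and -1.75 to 0.64 for Krt80 from parental to P5. In particular, Krt20 was -0.53 without line #4, -0.098 without line #6 and -1.97 without line #7, and from resistant to P12 0.62 without line #3 and 0.22 without line #6. The cause was not tested. Other filters, scalings, a pseudocount of 0.5 and no trend left calls and directions of the keratins as they were. Values below 2.31 to 4.07 normalized counts rest on fewer than 3 reads.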
